A study of Homo sapiens with 24 samples.

Results

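H209 and H187 are established lines of small-cell lung cancer, an aggressive tumour of neuroendocrine character, and the study's design counts both among its lines high in ISL1. The report describes how far their transcriptional responses to lurbinectedin differed, as the change in H209 (lurbinectedin minus DMSO) minus the change in H187 (lurbinectedin minus DMSO). It uses 12 of the study's 24 samples: 3 libraries of H209 with 0.1 nM lurbinectedin for 24 h, 3 of H209 with the vehicle DMSO, and the same 3 and 3 of H187. The study's remaining samples are lines it names as low in ISL1 (H82 and SHP-77). Both lines grew in RPMI-1640 with serum, and total RNA depleted of ribosomal RNA was sequenced. Each line is 1 cell line, so the comparison is between H209 and H187 and not between kinds of tumour. Genes entered where the deposited tables of both lines list them, which gave 13042 of the 16795 genes in any line's table. The H209 table lists 1379 genes that the H187 table does not, and the H187 table lists 981 that the H209 table does not; these were not compared.

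Lurbinectedin is an alkylating drug that bonds to guanine from the minor groove and can stall RNA polymerase II on its template, so long transcription units are exposed to many blocks. Stressed cells can also phosphorylate the translation factor eIF2α. Most translation then slows while ATF4 protein is made, and ATF4, with partners of the C/EBP family, turns on genes for amino acid synthesis, amino acid transport and tRNA charging. This programme is the integrated stress response (ISR). ATF4 with C/EBP binds a composite site, TGATGNAA, that lies in the promoters of several of these genes.

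The sequences shown here are from promoters of ISR genes, because many genes of that programme differed between the lines. They are 30-base stretches from RefSeq promoter windows (250 bases before to 50 bases after the annotated start, build GRCh38.p14), written 5′ to 3′ on the gene's strand, with the composite letters in capitals on whichever strand they were found. They were picked from 12 such matches after the values were seen. The first 6 belong to genes whose response was higher in H209, and the last 2, CHAC1 and ASNS, to genes for which no difference was called.
ATF3 (chr1:212565205-212565234, plus strand): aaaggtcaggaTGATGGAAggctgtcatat
MTHFD1L (chr6:150866346-150866375, plus strand): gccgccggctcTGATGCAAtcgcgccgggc
AARS (chr16:70289675-70289704, minus strand): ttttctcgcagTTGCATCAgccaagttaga
TARS (chr5:33440956-33440985, plus strand): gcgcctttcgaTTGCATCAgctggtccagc
SLC7A1 (chr13:29595663-29595692, minus strand): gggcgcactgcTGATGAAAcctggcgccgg
SLC38A1 (chr12:46266502-46266531, minus strand): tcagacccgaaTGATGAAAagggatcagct
CHAC1 (chr15:40953251-40953280, plus strand): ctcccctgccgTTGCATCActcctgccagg
ASNS (chr7:97872458-97872487, minus strand): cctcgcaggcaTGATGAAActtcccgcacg

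A promoter window was matched to 10210 of the 13042 genes, and 150 of these windows (1.47%) held the composite letters on either strand. The share was 26 of 603 (4.31%) among genes whose response was higher in H209, and 6 of 465 (1.29%) among genes whose response was lower in H209. Within the ISR lists described below, 10 of 33 genes with a larger response in H209 (30.3%) held the letters, as did 2 of 22 other members (9.09%). The other motifs were searched in the same windows on both strands. The cyclic AMP element TGACGTCA was in 4.81% of windows of genes higher in H209 and in 3.39% of all windows. The XBP1 element TGACGTGG, which shares its first 6 letters with it, was in 0.332% and 0.999%. The ER stress element (ERSE) was in 0.166% and 0.137%, the heat shock element (HSE) in 0.332% and 0.255%, and the E2F element TTTCCCGC in 1.99% and 2.64%. Among the 465 windows of genes lower in H209, the HSE was in 3 (0.645%). The cyclic AMP, XBP1, ERSE and E2F elements were in 3.01%, 0.86%, 0.215% and 1.94% of those windows. Of 20 windows of the heat shock chaperones described below, 4 (20.0%) held the HSE. A match is a description of letters in these windows, not of binding.

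The libraries held 24226553 to 31675679 counts in the line tables. Most markers of their type were listed for both lines, 9 of 10 neuroendocrine markers and 4 of 4 epithelial markers. The neuroendocrine marker CHGA was listed for neither line. Levels are given in CPM, counts scaled to a common library total, on TMM-scaled library sizes. Of 13 fibroblast, leukocyte and endothelial markers, 3 were listed in both tables, COL1A1, CD68 and VWF, with group means of at most 8.25 CPM; their part in the results was not tested. ISL1, a LIM homeodomain factor, fell in both lines, to 171, 166 and 175 CPM in treated H209 against 213, 218 and 204 CPM in DMSO H209, and to 227, 224 and 234 CPM in treated H187 against 269, 265 and 250 CPM in DMSO H187. Its responses were -0.31 in H209 and -0.19 in H187 on the log2 scale, and their difference did not pass the test (-0.12, 95% interval -0.22 to -0.01, adjusted p = 0.18). ISL1 overlaps LOC642366 on the opposite strand. In bulk RNA, fewer cells in a state and less RNA per cell cannot be told apart.

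More genes changed in H209 than in H187, and most genes that changed in both lines moved the same way. In H209, 5592 genes changed (42.9% of those tested), 2831 up (21.7%) and 2761 down (21.2%). In H187, 3961 changed (30.4%), 1927 up (14.8%) and 2034 down (15.6%). Of 2626 genes that changed in the same direction in both lines, 64.5% had the larger fold in H209. The difference between the responses passed edgeR's quasi-likelihood test, at an adjusted p under 0.05, for 1351 genes (10.4%). Of these, 774 (5.93%) were higher in H209 and 577 (4.42%) were lower, where higher means a larger rise, a smaller fall or a rise against a fall. At least 1 log2 unit separated the lines for 42 genes, 33 higher and 9 lower. Leaving out 5 abundant non-coding RNAs, which took a summed 46350 to 55290 CPM per library, turned the balance to 699 higher and 731 lower. Leaving out a single DMSO library could turn it too. The counts were 710 higher and 727 lower without H187 DMSO 1, 710 and 802 without H187 DMSO 3, and 562 and 564 without H209 DMSO 2.

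The 1351 genes were divided by what each line's own response did. In 683 genes the response passed the test in H209 and not in H187, with 423 up and 260 down, which was the largest of the 6 classes. In 588 of these the H187 response lay within a 1.2-fold change either way with its whole 95% interval. The reverse, a response in H187 and not in H209, held for 195 genes, of which 165 were within 1.2-fold in H209. Without H187 lurbinectedin 3 that count was 129. Another 316 genes moved in the same direction in both lines and further in H209 (173 up, 143 down), against 49 that moved further in H187. In 90 genes both responses passed with opposite signs, 62 of them up in H209 and down in H187. The H187 response lay within 1.2-fold with its whole 95% interval in 39 of the 90, and the H209 response in 31. A further 18 passed for the difference while neither line's own response did. By contrast, 2261 genes changed alike enough that no difference was called, and in 1493 of them the 95% interval of the difference lay within 1.2-fold.

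**Figure D1:**
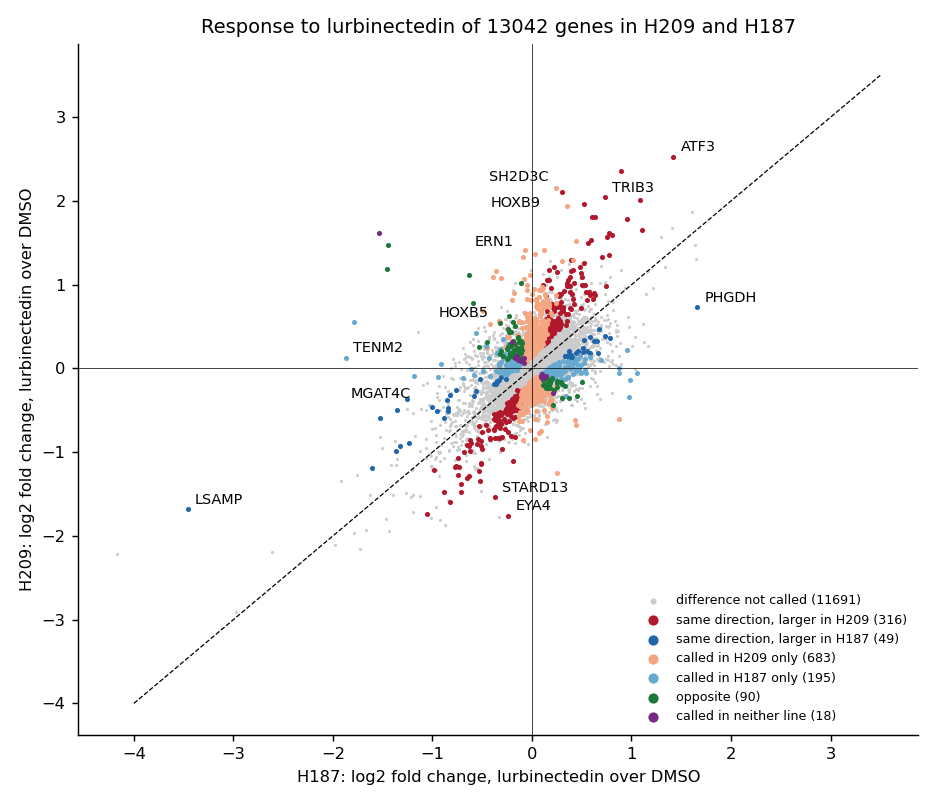
Log2 fold change (lurbinectedin over DMSO) of each of 13042 genes in H209 (vertical axis) and H187 (horizontal axis), 1 point per gene, coloured by how the 2 responses differed, with the number of genes in the legend. The dashed line marks equal responses. ATF3 and TRIB3 lie above it and PHGDH and EYA4 below it, while LSAMP fell further in H187.

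Genes of the integrated stress response had a higher response in H209 in each of its lists, of regulators, enzymes, transporters, tRNA synthetases and secreted factors. Of 72 genes in 5 ISR lists, 44 (61.1%) had a higher response in H209, against 5.93% of all genes. A lower one was found for 4, against 4.42% of all genes. All 44 genes with the higher response rose in H209. Of them, 31 also rose in H187, 12 did not pass the test there, and 1 fell. The median response difference over the 72 genes was 0.29, against -0.0029 over all genes tested. The lists were chosen with earlier results of these data known, so these figures are not an independent test of the programme. The summed level of the 18 regulators was 3044 to 3107 CPM in treated H209 and 1969 to 2022 CPM in DMSO H209, against 1511 to 1575 CPM in treated H187 and 1355 to 1410 CPM in DMSO H187, so H209 was already above H187 without drug.

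Among the regulators, 13 of 18 were higher in H209, against 5.93% of all genes (12 to 13 over the alternatives, median difference 0.56). ATF4, the transcription factor of the programme, had 408, 405 and 399 CPM in treated H209 and 283, 274 and 264 CPM in DMSO H209, against 252, 227 and 256 CPM in treated H187 and 257, 255 and 215 CPM in DMSO H187. Its transcript rose in H209 with no overlap between groups, and the H187 groups overlapped. The responses were 0.56 and 0.02, a difference of 0.55 ± 0.07 (SE, adjusted p = 1.3e-06). CEBPB, a C/EBP partner, had 104, 102 and 97.6 CPM in treated H209 and 25.8, 22.9 and 29.5 CPM in DMSO H209, against 32.0, 26.1 and 24.2 CPM in treated H187 and 17.2, 20.2 and 19.6 CPM in DMSO H187. It rose 3.89-fold in H209 and 1.44-fold in H187. TRIB3, a pseudokinase that restrains ATF4 signalling, stood at 214, 212 and 213 CPM in treated H209 and 52.4, 49.5 and 53.3 CPM in DMSO H209, against 13.3, 14.2 and 15.4 CPM in treated H187 and 9.14, 8.78 and 7.96 CPM in DMSO H187. Every H209 library was above every H187 library for TRIB3, and the rise was 4.12-fold in H209 and 1.66-fold in H187.

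PPP1R15A, the phosphatase subunit that reverses eIF2α phosphorylation, rose more in H209, where its DMSO level was lower. It had 66.3, 70.1 and 66.7 CPM in treated H209 and 29.3, 31.3 and 29.4 CPM in DMSO H209, against 126, 117 and 128 CPM in treated H187 and 112, 116 and 101 CPM in DMSO H187. The response difference was 1.00 ± 0.07 (adjusted p = 4.7e-12). ATF3, a stress-induced repressor, rose in both lines, 5.77-fold in H209 and 2.68-fold in H187, and DDIT3, which encodes the pro-death factor CHOP, rose 3.06-fold and 1.72-fold. Reads of CEBPB may be shared with its antisense gene, and those of DDIT3 with MARS, which overlaps it on the opposite strand, since the strand setting of the counting is not given in the sources used here. Regulators without a higher response included CHAC1, a glutathione-degrading enzyme, at 1.47 in H209 and 1.64 in H187 (difference -0.17, 95% interval -0.42 to 0.09, adjusted p = 0.46), and the kinase gene EIF2AK2, which was lower (-0.18, adjusted p = 0.029, a call lost without any 1 of 6 libraries). Both were named after their values were seen.

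In the serine, glycine and folate pathway 9 of 16 genes were higher in H209 and 1 was lower, against 5.93% and 4.42% of all genes. Enzymes of 1 pathway thus differed in which line responded more. PHGDH, which makes the first committed step of serine synthesis, was the one that rose more in H187. It had 296, 299 and 284 CPM in treated H209 and 175, 178 and 175 CPM in DMSO H209, against 48.3, 48.2 and 50.7 CPM in treated H187 and 16.5, 15.4 and 14.8 CPM in DMSO H187. The rise was 1.66-fold in H209 and 3.16-fold in H187 (difference -0.93 ± 0.06, adjusted p = 1.9e-12), and treated H187 remained below DMSO H209. PSAT1, the next enzyme, rose 1.99-fold in H209 and 1.41-fold in H187, a difference of 0.49 ± 0.06 the other way. The mitochondrial folate enzyme SHMT2 (0.89 in H209, 0.40 in H187) and the alanine transaminase GPT2 (0.92 and 0.32) also had the higher response in H209. Exons of SHMT2, SLC6A9, HSP90AA1 and PDIA3 overlap those of another gene on the opposite strand. ALDH1L2, another mitochondrial folate enzyme, had 53.3, 53 and 50.4 CPM in treated H209 and 19.0, 19.3 and 22.5 CPM in DMSO H209, while the 6 H187 libraries held 0.774 to 1.14 CPM. ASNS, the asparagine synthetase, rose in both lines with no difference called (0.88 and 0.73, difference 0.15, 95% interval -0.27 to 0.58, adjusted p = 0.71), and is named after its value was seen.

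Of 14 amino acid transporter genes, 8 were higher in H209, against 5.93% of all genes (7 to 8 over the alternatives). SLC36A4 alone was lower (-0.19, adjusted p = 0.018, lost without H187 lurbinectedin 2, adjusted p = 0.057, or H187 DMSO 2, 0.063). SLC7A1, the cationic amino acid carrier, had 604, 572 and 615 CPM in treated H209 and 425, 430 and 433 CPM in DMSO H209, against 409, 401 and 403 CPM in treated H187 and 391, 407 and 429 CPM in DMSO H187. The treated H209 libraries stood apart from the other 9, which held 391 to 433 CPM. SLC38A1, a glutamine carrier, went opposite ways, up by 0.30 in H209 and down by 0.10 in H187 on the log2 scale. The glycine carrier SLC6A9 rose 2.97-fold in H209 and 1.69-fold in H187. Among 19 cytosolic tRNA synthetases 12 were higher in H209, against 5.93% of all genes (10 to 12 over the alternatives). SARS (0.72 in H209, 0.31 in H187), GARS (0.51 and 0.13), MARS (0.45 and 0.16) and TARS (0.65 and 0.36) had the smallest p. One synthetase, QARS, was lower (-0.23, adjusted p = 0.032, lost without any 1 of 6 libraries). NARS is counted in both the regulator and the synthetase lists, and its call was lost without H209 DMSO 3 (adjusted p = 0.055). Of 6 secreted stress factors 3 were higher, against 5.93% of all genes (2 to 4 over the alternatives). Among them were the peptide hormone gene ADM2 (3.5-fold in H209, 1.52-fold in H187) and STC2 (3.02-fold and 1.75-fold).

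**Figure D2:**
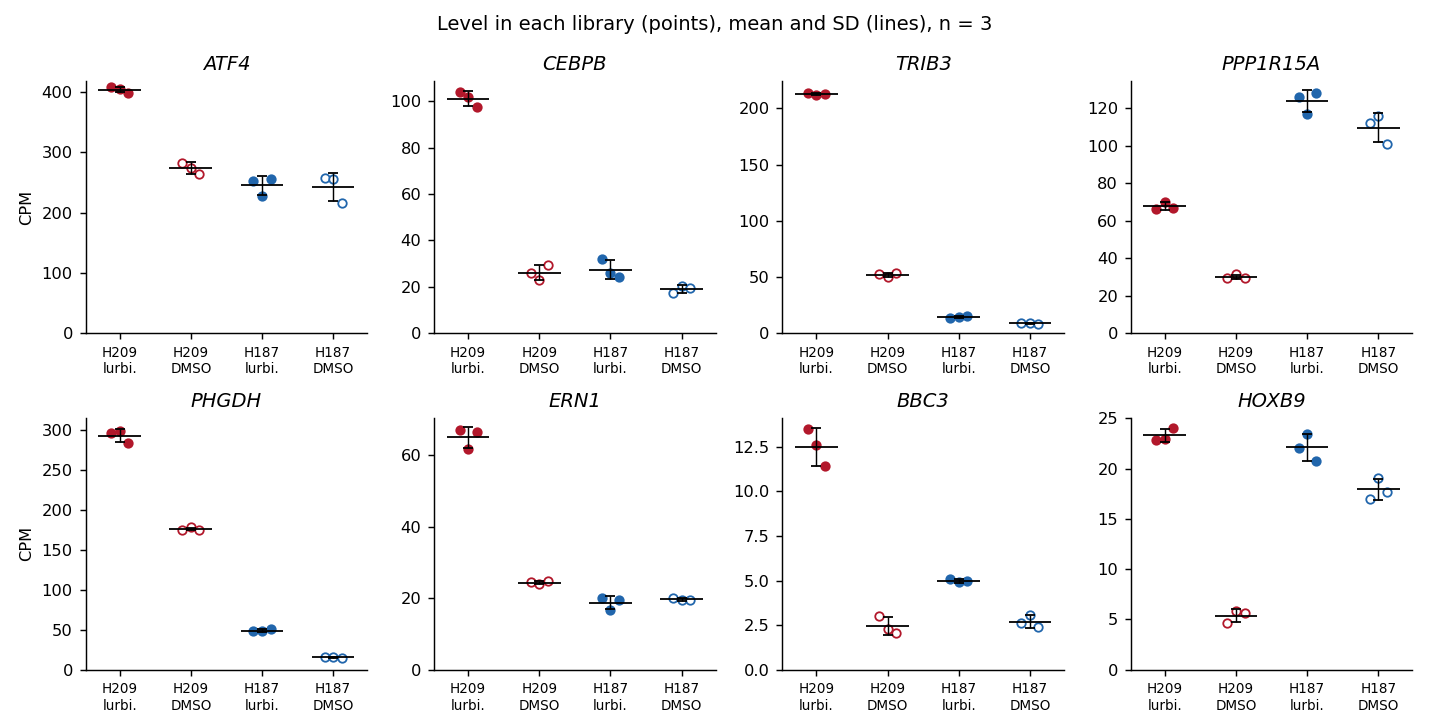
Level in CPM (vertical axes, each from 0) of 8 genes in the 12 libraries, with H209 in red and H187 in blue, filled points for lurbinectedin and open points for DMSO; lines show the mean and the SD of 3 libraries. ATF4 and ERN1 separate treated H209 from the other 3 groups, PHGDH rises in both lines, and HOXB9 in DMSO H209 lies below the other groups.

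Of 26 genes of the unfolded protein response, by which the endoplasmic reticulum answers misfolded protein, 4 were higher in H209 and 3 lower (5 lower without H187 DMSO 3), against 5.93% and 4.42% of all genes. ERN1, the endoplasmic reticulum sensor IRE1α, had 67, 61.7 and 66.4 CPM in treated H209 and 24.5, 23.9 and 24.7 CPM in DMSO H209, against 20.2, 16.7 and 19.5 CPM in treated H187 and 20.0, 19.4 and 19.6 CPM in DMSO H187. It rose 2.67-fold in H209, and its H187 response of -0.07 did not pass the test (difference 1.49 ± 0.08, adjusted p = 9.4e-14). XBP1, whose RNA is spliced by IRE1α, rose 1.72-fold in H209 and stood at 75.2, 79.9 and 78.7 CPM in treated H187 against 76.2, 73.2 and 76.2 CPM in DMSO H187. HERPUD1, a component of protein degradation at the endoplasmic reticulum, rose 1.92-fold in H209, with 0.07 on the log2 scale in H187. The fourth, ATF6, fell less in H209 (0.21, lost without H209 lurbinectedin 1, adjusted p = 0.054, or H209 DMSO 2, 0.066). The chaperone HSP90B1 fell in both lines and further in H209, to 345, 315 and 346 CPM in treated H209 against 498, 489 and 479 CPM in DMSO H209, and to 694, 693 and 725 CPM in treated H187 against 866, 863 and 882 CPM in DMSO H187. The disulfide isomerase genes PDIA4 (-0.19) and PDIA3 (-0.18, lost without any 1 of 5 libraries) were the others that were lower, PDIA4 and ATF6 being named after their values were seen.

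Of 21 heat shock chaperones, which fold cytosolic and mitochondrial proteins, 7 had a lower response in H209 (10 without H187 DMSO 1 and 4 without H187 lurbinectedin 3) and 1 a higher one, against 4.42% lower and 5.93% higher over all genes. In H209 17 fell and in H187 7 fell, against 21.2% and 15.6% of all genes. HSP90AA1 had 1660, 1640 and 1630 CPM in treated H209 and 2080, 2070 and 1990 CPM in DMSO H209, against 2130, 2190 and 2230 CPM in treated H187 and 2240, 2280 and 2350 CPM in DMSO H187. Its response was -0.32 in H209 and -0.07 in H187 (difference -0.25 ± 0.04, adjusted p = 2.0e-05). HSPH1 (-0.27 in H209, -0.01 in H187) and the co-chaperone AHSA1 (-0.30 and -0.06) had a similar difference. The exception was HSPA9, the mitochondrial HSP70, which rose in both lines and more in H209 (0.38 and 0.11).

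Of 8 pro-apoptotic BH3-only genes 4 were higher and 0 lower, against 5.93% and 4.42% of all genes; edgeR, DESeq2 and limma also found 0 lower at an unadjusted p under 0.05. BBC3, which encodes PUMA, had 13.5, 12.6 and 11.4 CPM in treated H209 and 3.04, 2.28 and 2.05 CPM in DMSO H209, against 5.1, 4.9 and 4.98 CPM in treated H187 and 2.6, 3.09 and 2.4 CPM in DMSO H187. The DMSO levels overlapped between the lines, and the rise was 5.12-fold in H209 and 1.86-fold in H187 (difference 1.46 ± 0.20, adjusted p = 4.2e-06). HRK rose 3.5-fold in H209 and 1.55-fold in H187, PMAIP1, which encodes NOXA, 2.22-fold and 1.19-fold, and BMF rose by 0.28 on the log2 scale in H209 against -0.03 in H187. Of 7 BCL2 survival genes and effectors none was higher and 1, the pore-forming effector BAX, was lower, with 57.2, 55.4 and 53.4 CPM in treated H209 and 60.8, 60.0 and 57.7 CPM in DMSO H209, against 92.7, 94.7 and 94.5 CPM in treated H187 and 86.6, 88.9 and 80.5 CPM in DMSO H187. BAX fell in H209 and rose in H187 (-0.10 and 0.14). Its fall in H209 only just passed edgeR's test (95% interval -0.19 to -0.02, adjusted p = 0.049).

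Among 18 p53 targets, 5 were higher and 2 lower, against 5.93% and 4.42% of all genes, with a median difference of 0.02 whose sign changed under 4 alternatives. CDKN1A, the cell cycle inhibitor p21, rose 1.95-fold in H209 and 1.14-fold in H187, to 97.4, 100 and 94.4 CPM in treated H209 against 50.0, 48.2 and 51.3 CPM in DMSO H209, and to 116, 121 and 119 CPM in treated H187 against 103, 106 and 102 CPM in DMSO H187. Every treated H209 library was below every DMSO H187 library. GADD45A (0.76 in H209, 0.27 in H187) and the nuclease gene AEN (0.56 and 0.20) were higher too. The antiproliferative gene BTG2 fell by 0.43 in H209 and was at -0.01 in H187.

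Immediate early genes, the fast transcriptional targets of growth and stress signals, were higher in 12 of 27 cases and lower in 0, against 5.93% and 4.42% of all genes (11 to 14 higher over the alternatives, and 0 lower by edgeR, DESeq2 and limma also at an unadjusted p under 0.05). RHOB, a small GTPase gene, had 129, 130 and 126 CPM in treated H209 and 67.7, 61.7 and 62.8 CPM in DMSO H209, against 121, 124 and 127 CPM in treated H187 and 113, 120 and 111 CPM in DMSO H187. The rise was 2-fold in H209 and 1.08-fold in H187, and the DMSO level was lower in H209. JUND, an AP-1 subunit, rose 1.58-fold in H209 and had a response of -0.07 in H187. KLF10 rose in both lines (1.14 in H209, 0.49 in H187), and BTG1 rose by 0.70 in H209 with 0.09 in H187. In 14 NF-kB targets 1 was higher, against 5.93% of all genes. This was RELB (1.21 in H209 and 0.48 in H187), a call lost without any 1 of 4 libraries. The difference lay above 0 in all 14, with a median of 0.10, as it did in 6408 of 13042 genes tested. In H209 10 of the 14 rose and in H187 5, against 21.7% and 14.8% of all genes.

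**Figure D3:**
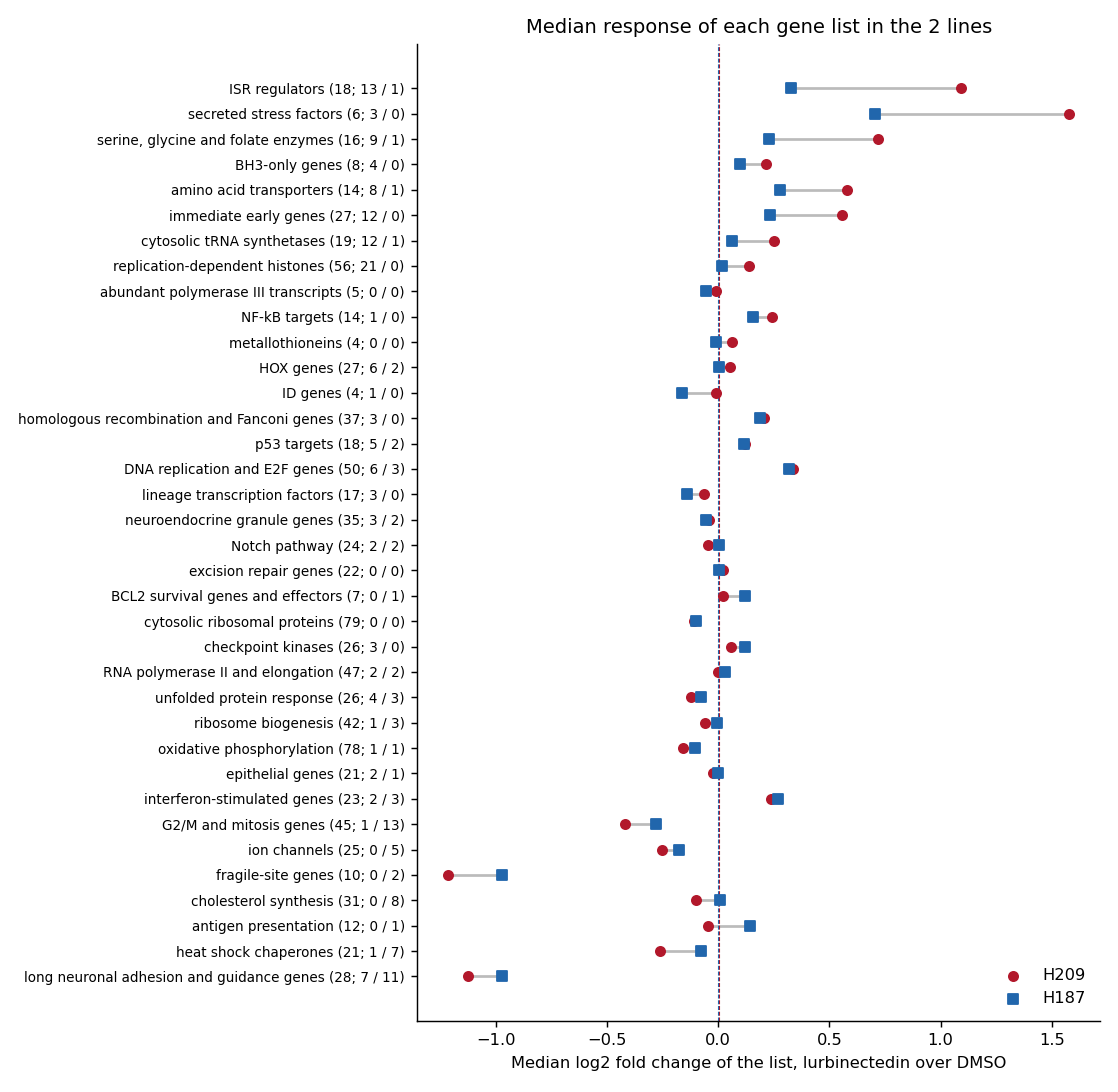
Median log2 fold change (horizontal axis) of each of 36 gene lists in H209 (red circles) and H187 (blue squares), with lists ordered by their median response difference; brackets give the genes tested and the number whose response was higher / lower in H209. The dashed lines are the medians over all genes. ISR regulators and secreted stress factors have the widest gaps, and the replication list nearly coincides in the 2 lines.

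DNA replication genes rose in both lines, and 13 mitotic genes had a lower response in H209. Of 50 replication and E2F genes 47 rose in H209 and 47 in H187, and 6 had a higher and 3 a lower response (median difference 0.02); over all genes 21.7% rose in H209, 14.8% rose in H187, and 5.93% and 4.42% differed each way. The transcription factor gene E2F2 had 143, 145 and 144 CPM in treated H209 and 76.7, 79.6 and 76.9 CPM in DMSO H209, against 387, 367 and 376 CPM in treated H187 and 300, 316 and 305 CPM in DMSO H187. It rose 1.85-fold in H209 and 1.23-fold in H187. The primase subunit PRIM1 (0.58 in H209, 0.16 in H187) was higher, and the replicative helicase subunit GINS4 (0.39 and 0.74) was lower. Of 45 G2/M and mitosis genes 43 fell in H209 and 39 in H187, and 13 had a lower response in H209 (11 to 19 over the alternatives). Over all genes, 21.2% fell in H209, 15.6% fell in H187 and 4.42% had a lower response. TOP2A, the mitotic topoisomerase, fell to 848, 813 and 818 CPM in treated H209 against 1140, 1140 and 1130 CPM in DMSO H209, and to 1670, 1700 and 1730 CPM in treated H187 against 1990, 1940 and 1950 CPM in DMSO H187 (difference -0.25 ± 0.04, adjusted p = 1.5e-05). The kinetochore genes BUB1 (-0.74 in H209, -0.44 in H187) and CENPF (-0.66 and -0.31) and the spindle gene DLGAP5 (-0.61 and -0.35) also fell further in H209. One gene, TPX2, fell less in H209 (0.13, adjusted p = 0.049, lost without any 1 of 11 libraries), and was named after its value was seen.

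Replication-dependent histone genes, transcribed in S phase, were higher in 21 of 56 cases and lower in 0, against 5.93% and 4.42% of all genes. In H209 32 rose and 6 fell, against 21.7% and 21.2% of all genes. In H187 8 rose and 9 fell, against 14.8% and 15.6% of all genes. HIST1H2AC (0.51 in H209, 0.07 in H187), HIST1H1E (0.30 and -0.05) and HIST1H3B (0.31 and 0.02) rose in H209, and HIST1H3H rose there and fell in H187 (0.33 and -0.11). Histone copies are near-identical in sequence, so values of single histone genes are uncertain. The count of higher responses was 12 without H209 DMSO 2 and 14 without H187 lurbinectedin 1, and 2 histones were lower without H187 DMSO 1; at an unadjusted p under 0.05 edgeR found 28 higher and 0 lower, and DESeq2 27 and 1. Among DNA repair genes, 3 of 37 homologous recombination and Fanconi genes were higher (1 without H209 lurbinectedin 2), against 5.93% of all genes, with the nuclease EXO1 at 0.91 in H209 and 0.57 in H187, and 0 of 22 excision repair genes differed by edgeR, DESeq2 or limma, also at an unadjusted p under 0.05. Of 79 cytosolic ribosomal protein genes 0 differed by edgeR and 1 by DESeq2, and 3 were higher and 6 lower by edgeR at an unadjusted p under 0.05. With edgeR, 1 was higher and 1 lower under the GC correction, 1 was lower without the abundant non-coding RNAs, 3 were lower without H187 DMSO 1, 1 was higher without H187 DMSO 2, 1 was higher and 2 lower without H187 DMSO 3, and 2 were lower without H209 DMSO 2. In H209 42 of them fell and in H187 35 fell, against 21.2% and 15.6% of all genes. Cholesterol synthesis, which supplies membranes, was lower in 8 of 31 genes and higher in 0 by edgeR, against 4.42% and 5.93% of all genes (14 and 0 at an unadjusted p under 0.05, as by DESeq2), led by INSIG1 (-0.28 in H209, -0.01 in H187), SQLE (-0.24 and 0.04) and HMGCS1 (-0.35 and -0.11).

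Most long neuronal genes fell in both lines, and the line in which a gene fell further varied by gene. Over the 471 genes that span at least 300 kb, the median response was -0.43 in H209 and -0.36 in H187, and 21.7% had a called difference, 44 higher and 58 lower, against 10.4% of all genes. Of 28 long adhesion and guidance genes, which encode synaptic and axonal surface proteins, 25 fell in H209 and 27 in H187; 11 had a lower response in H209 and 7 a higher one, against 4.42% and 5.93% of all genes (8 of 17 and 3 of 17 in the fit of all 24 libraries, which tests only genes listed for every line). LSAMP, a limbic adhesion gene that spans 643 kb, was at 0.738, 1.54 and 0.932 CPM in treated H209 and 2.92, 3.91 and 3.12 CPM in DMSO H209, against 0.785, 1.52 and 1.26 CPM in treated H187 and 13.4, 13.7 and 13 CPM in DMSO H187. The treated lines ended at overlapping levels although DMSO H187 started higher, and the responses were -1.68 in H209 and -3.46 in H187. TENM2, a teneurin that spans 979 kb, had 2.37, 2.46 and 2.66 CPM in treated H209 and 2.22, 2.34 and 2.31 CPM in DMSO H209, against 0.314, 0.419 and 0.133 CPM in treated H187 and 1.02, 1.22 and 0.969 CPM in DMSO H187. It fell in H187 and was not called in H209 (0.13 in H209, -1.87 in H187), and its lowest library held 4 counts. In the other direction, TENM3 (-0.83 in H209, -0.34 in H187) and the contactin CNTN1 (-0.97 and -0.50) fell further in H209. SLIT2, a guidance ligand, rose in H209 and fell in H187 (0.63 and -0.23), a call of difference lost without H209 DMSO 1 (adjusted p = 0.066); it was named after its value was seen.

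**Figure D4:**
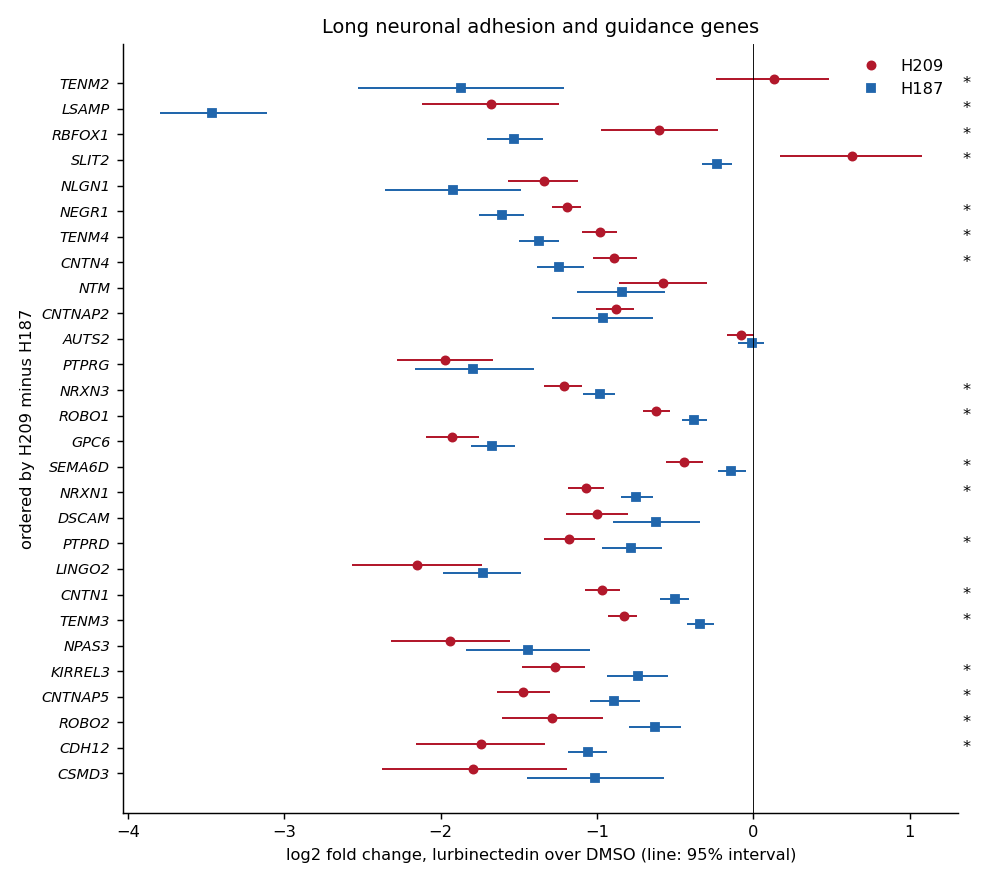
Log2 fold change (horizontal axis) with 95% interval of 28 long neuronal genes in H209 (red circles) and H187 (blue squares), ordered by H209 minus H187; asterisks mark genes whose difference passed the test. TENM2 and LSAMP are at the top: TENM2 fell in H187 and was not called in H209, and LSAMP fell further in H187. Genes such as TENM3 and CNTN1, in the lower part, fell further in H209.

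Other large differences included long genes outside that list. EYA4, a transcriptional coactivator gene that spans 291 kb, had 0.289, 0.283 and 0.566 CPM in treated H209 and 1.17, 1.64 and 1.08 CPM in DMSO H209, against 17.5, 17.4 and 17.8 CPM in treated H187 and 22.2, 20.3 and 19.7 CPM in DMSO H187. It fell further in H209, where its level was lowest (-1.76 and -0.24). Its lowest library held 7 counts. STARD13, which encodes a GTPase-activating protein and spans 574 kb, also fell further in H209 (-1.54 and -0.38). MGAT4C, a glycosyltransferase family gene that spans 866 kb, had 8.15, 7.56 and 8.19 CPM in treated H209 and 8.99, 8.4 and 8.22 CPM in DMSO H209, against 4.32, 3.97 and 3.62 CPM in treated H187 and 8.34, 9.39 and 9.22 CPM in DMSO H187. The DMSO levels of the lines overlapped, and the gene was not called in H209 (-0.10) and fell in H187 (-1.18). The scaffold gene MAGI2, which spans 1440 kb, also fell in H187 and was not called in H209 (-0.11 in H209, -0.95 in H187).

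Some shorter genes passed the test in a single line. SH2D3C, a signalling adaptor, had 6.42, 6.02 and 5.82 CPM in treated H209 and 1.32, 1.35 and 1.41 CPM in DMSO H209, against 2.28, 2.58 and 2.42 CPM in treated H187 and 1.68, 2.2 and 2.3 CPM in DMSO H187, a rise of 4.46-fold in H209. RGS16, a regulator of G protein signalling, rose 2.51-fold in H209 with a response of -0.09 in H187, and AKNA, a DNA-binding and centrosomal protein gene, rose 2.67-fold in H209 with 0.13 in H187. In H187, TSPAN2, a tetraspanin, rose to 2.87, 2.97 and 2.72 CPM in treated cells against 1.24, 1.22 and 1.61 CPM under DMSO, while H209 held 6.96, 6.67 and 7.45 CPM treated and 7.16, 7.73 and 6.96 CPM under DMSO. NR1D1, the circadian repressor REV-ERBα, rose 1.83-fold in H187 and was not called in H209, where it was at 0.00 on the log2 scale; it overlaps THRA on the opposite strand.

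HOX genes, the homeodomain factors that pattern the body axis, held 5 of the 90 opposite responses, which were 90 of 13042 genes over all. Of 27 tested, 6 were higher in H209 and 2 lower, against 5.93% and 4.42% of all genes; HOXA10 (0.27) and HOXD11 (-0.45) were the 2 that changed in H209 and did not pass in H187. The fit of all 24 libraries tested 3 HOX genes and called none. HOXB9 (chromosome 17, 48621157 to 48626473, minus strand) had 22.9, 23.0 and 24.1 CPM in treated H209 and 4.63, 5.83 and 5.69 CPM in DMSO H209, against 22.1, 23.5 and 20.8 CPM in treated H187 and 17.0, 19.1 and 17.7 CPM in DMSO H187. It rose 4.31-fold in H209 and 1.23-fold in H187, and the treated lines overlapped. HOXB5, of the same cluster, had 44.8, 48.1 and 42.4 CPM in treated H209 and 32.1, 29.1 and 31.3 CPM in DMSO H209, against 105, 104 and 104 CPM in treated H187 and 132, 131 and 130 CPM in DMSO H187. It rose by 0.55 in H209 and fell by 0.32 in H187 (difference 0.87 ± 0.06, adjusted p = 9.0e-12). HOXB2 (0.21 in H209, -0.31 in H187), HOXB6 (0.51 and -0.17) and HOXB4 (0.24 and -0.25, named after its value was seen) also rose in H209 and fell in H187. HOXD10 went the reverse way, with 38.8, 36.7 and 39.6 CPM in treated H209 and 45.4, 48.1 and 51.9 CPM in DMSO H209, against 4.51, 5.13 and 4.28 CPM in treated H187 and 3.18, 3.25 and 3.77 CPM in DMSO H187. HOXB5 and HOXB6 overlap an antisense gene, HOXB-AS3, so their reads may be shared.

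**Figure D5:**
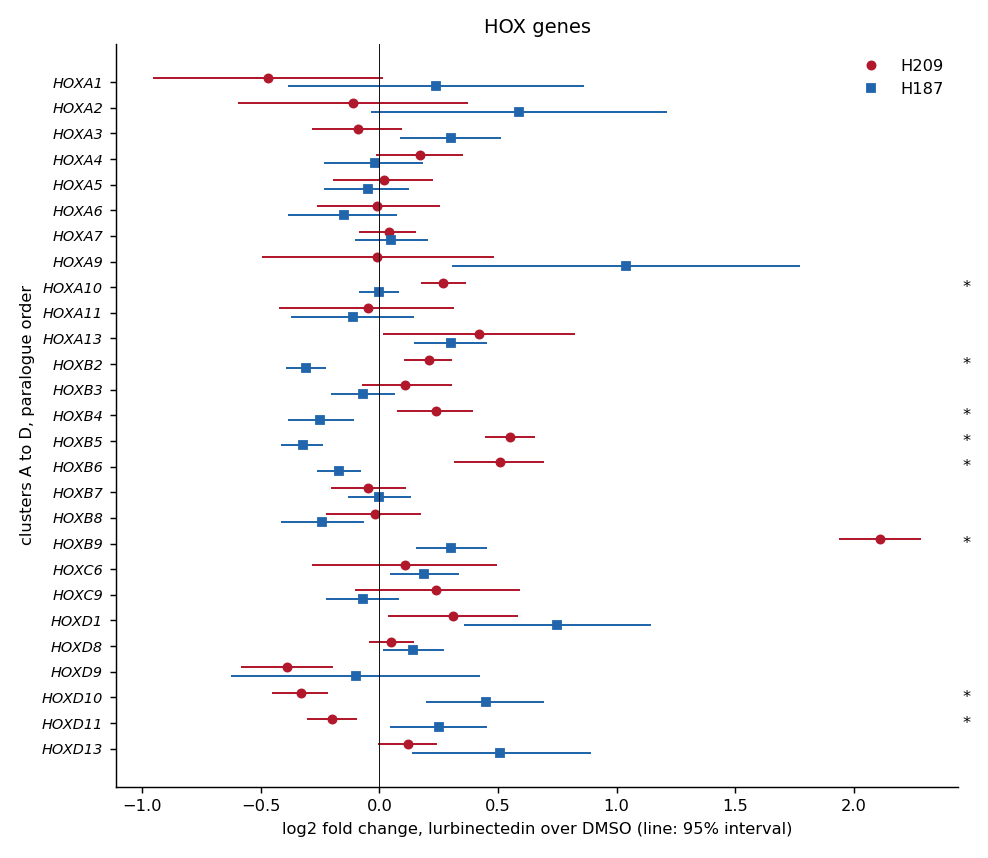
Log2 fold change (horizontal axis) with 95% interval of 27 HOX genes in H209 (red circles) and H187 (blue squares), in cluster order; asterisks mark genes whose difference passed the test. HOXB2, HOXB4, HOXB5 and HOXB6 lie right of 0 in H209 and left of 0 in H187, HOXB9 lies farthest right, and HOXD10 is reversed.

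INSM1, a zinc finger factor of neuroendocrine cells, had 917, 930 and 882 CPM in treated H209 and 797, 752 and 874 CPM in DMSO H209, against 543, 484 and 491 CPM in treated H187 and 561, 631 and 573 CPM in DMSO H187. It rose in H209 and fell in H187 (0.17 and -0.22, difference 0.39 ± 0.06, adjusted p = 8.7e-05). The responses of the Notch ligand DLL3 (-0.14 in H209, -0.22 in H187) had a difference of 0.08 that was not called (adjusted p = 0.50). NEUROD1 was at -0.20 in H209 and 0.21 in H187 (difference -0.40, adjusted p = 0.40). MYCL, a MYC family oncogene, was lower in H209 (-0.22 and -0.05, difference -0.17, adjusted p = 0.045), a call lost without any 1 of 8 libraries. SLFN11, whose protein blocks stalled replication forks, rose in both lines and less in H209 (0.21 and 0.46, difference -0.25 ± 0.05, adjusted p = 0.0023). Of 35 neuroendocrine granule genes 3 were higher and 2 lower, against 5.93% and 4.42% of all genes. Without H187 DMSO 3, 0 were higher and 5 lower, without H187 lurbinectedin 1, 0 and 2, and without H209 lurbinectedin 3, 0 and 3. Of 17 lineage transcription factors 3 were higher and 0 lower by edgeR, against 5.93% and 4.42% of all genes. At an unadjusted p under 0.05 edgeR gave 5 and 3. By DESeq2 2 were higher, by limma 1, in the fit of all 24 libraries 1 of 14, and 1 without any 1 of 8 libraries. The median difference of the list was 0.02, and its sign changed under 2 alternatives.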

How the data were processed

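RNA-seq of 4 cell lines was deposited as 1 table per line. Per the submitters' processing notes, STAR 2.7.10a, featureCounts, Subread 2.0.3 and edgeR 4.2.0 were used on hg38; the annotation, strand setting and filter are not given in the sources used here. The tables hold raw counts per gene as the authors deposited them, and the authors' log2 CPM, which entered 1 alternative only.

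Here the counts of H209 and H187 (3 samples a group) were fitted with glmQLFit and glmQLFTest of edgeR 4.0.16 under R 4.3.3, after TMM scaling, with 1 mean per line and treatment; filterByExpr removed no gene. Adjusted p-values are Benjamini-Hochberg over 13042 genes at a threshold of 0.05. The 2 line responses are contrasts of the same fit, so they subtract to the difference. The design text calls the triplicates biological and says no more of how they were grown. CPM are on TMM-scaled library sizes, and fold changes are the fit's. In simulated counts from the real means, 63, 68 and 69 genes were given differences of 0.3, 0.6 and 1 on the log2 scale. These were recovered in 54%, 79.4% and 95.7% of genes, and 14 of 168 calls were false (8.33%, above the threshold of 0.05). Far fewer genes differed there than the 1351 called in the real counts, so both shares may be otherwise in the real counts.

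Members and gene lists were chosen with earlier results of these data known. Genes named are a panel, the 10 largest differences each way, and the largest in the opposite and single-line classes. Up to 4 members per list by p were added, and others are marked. The rankings by size took only protein-coding genes with a called difference and a mean log2 CPM of at least 1. The treated-DMSO pairs of these genes also had to show no overlap between H209 and H187. No set test was run. The main fit did not pair samples by replicate number. Alternatives were RLE, other library sizes, other filters, DESeq2 1.42.0, limma 3.58.1 and a GC correction. Further alternatives were a replicate block within each line, all 24 libraries, leaving out abundant non-coding RNAs, and leaving out each library.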

Additional observations from a re-analysis of the deposited data

Results flagged for a closer look

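In 90 genes lurbinectedin moved H209 one way and H187 the other, with both line responses and the difference between them past edgeR's test. These were 90 of the 2716 genes called in both lines. Most of the opposite responses were small, with a median absolute log2 fold change of 0.201 in H209 and 0.185 in H187. The 8 named by the rule were these, each with its response difference (H209 minus H187, log2). The rule took only genes with no overlap between the 9 treated-DMSO pairs of H209 and the 9 of H187. Of all genes tested, 1796 (13.8%) had no such overlap. EFNA3, an ephrin ligand, differed by -0.72 (adjusted p = 5.9e-06), with 6.45, 7.15 and 7.32 CPM in treated H209 and 9.38, 8.62 and 8.67 CPM in DMSO H209, against 31.2, 32.2 and 31.1 CPM in treated H187 and 24.5, 24.0 and 24.5 CPM in DMSO H187. CDK18, a cyclin-dependent kinase, differed by -0.65 (adjusted p = 3.5e-08), with 31.7, 32.2 and 32.5 CPM in treated H209 and 41.5, 40.7 and 41.0 CPM in DMSO H209, against 31.7, 31.0 and 30.5 CPM in treated H187 and 25.7, 25.1 and 24.9 CPM in DMSO H187. The treated lines thus reached like levels of CDK18 from different DMSO levels. HOXD10 differed by -0.78 (adjusted p = 1.1e-04) and HOXB5 by 0.87 (adjusted p = 9.0e-12).

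GOT1, the cytosolic aspartate transaminase, differed by 0.49 (adjusted p = 1.6e-07), with 106, 108 and 110 CPM in treated H209 and 91.4, 90.7 and 90.0 CPM in DMSO H209, against 50.6, 50.0 and 47.9 CPM in treated H187 and 60.9, 56.0 and 58.1 CPM in DMSO H187. MAP2K6, a kinase upstream of p38, differed by 0.77 (0.31 in H209, -0.45 in H187, adjusted p = 7.0e-04), and MDFIC, a MyoD family inhibitor domain gene, by 0.79 (0.25 and -0.53, adjusted p = 0.0034). KCNK12, a potassium channel subunit gene, differed by 0.71 (0.47 and -0.25, adjusted p = 0.0076), a call lost without H209 DMSO 2 (adjusted p = 0.058).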

How the results depend on the processing

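The 1351 genes with a called difference numbered 1088 to 1595 under the other settings that kept all libraries, 774 higher and 577 lower becoming 653 and 435 with the replicate block, 735 and 636 with RLE, 691 and 642 with DESeq2, 804 and 791 with the GC correction, 720 and 621 with limma on the deposited log2 CPM, and 645 and 623 with all 24 libraries. Leaving out 1 library gave 562 to 720 higher and 418 to 802 lower. The absolute difference of at least 1 left 42. The small class called in neither line held 32 genes with DESeq2, 29 with the GC correction, 9 with the replicate block and 9, 10, 10, 11 and 35 without H187 lurbinectedin 3, H209 DMSO 1, H209 lurbinectedin 2, H209 lurbinectedin 1 and H187 DMSO 3, and the class called in H187 only held 129 to 223 without 1 library; the cause was not tested. The opposite class held 61 to 94 genes without 1 library. Library sizes over each whole table, and no filter, gave the same counts as the main setting. No result changed sign while called. Of 152 named genes 136 passed the test, and 109 of these passed under every alternative in which they were tested.

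Same-numbered libraries did not deviate together (correlations -0.15 to -0.018 over genes), and no treated library correlated best with the DMSO library of its own number. The deviations thus showed no pairing by replicate number, though the sources used here do not say how the samples were grown. The main fit has no block, and the replicate block is counted among the alternatives. At this depth the median SE of a response difference was 0.0797 on the log2 scale; low genes such as TENM2 and SPP1 had wider intervals.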
